A study of Homo sapiens with 38 samples.

Results

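The genes described here are the LIF receptor and its JAK-STAT3 pathway in naive human embryonic stem cells: the receptor chains LIFR and IL6ST, the kinases JAK1 and JAK2, the transcription factor STAT3, and 3 genes that STAT3 is known to switch on, SOCS3, SOCS2 and PIM1. They were chosen by symbol, and all 8 were found among the 57133 genes of the count table. The question was how the transcripts of the pathway changed once the cells left PXGL, the medium that supplies LIF, and whether the change depended on the medium they were moved to and on the day.

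RNA was profiled in 38 libraries of naive Shef6 cells, an established human embryonic stem cell line that had been adapted to serum coating. Naive cells (day 0) were grown in PXGL, which is N2B27 basal medium with a MEK inhibitor (PD0325901), the tankyrase inhibitor XAV939, a PKC inhibitor (Gö6983) and human LIF, on serum coating or Geltrex (a matrix of basement membrane proteins). The labels give the condition of these libraries as PXGLY. Differentiated cells were plated on Geltrex in N2B27, in the media E8 or mTeSR, which the study describes as containing FGF and Activin A, in N2B27 with XAV939 (XAV), or in N2B27 with FGF2, XAV939 and Activin A (FAX). A ROCK inhibitor was present on the day of plating.

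The first experiment (Ex1) sampled N2B27 and E8 on days 2, 3, 4, 6 and 8 and mTeSR on days 4, 6 and 8, with naive cells from either surface as the start. The second (Ex2) sampled day 4 only, in FAX, XAV and N2B27, with Geltrex-grown naive cells as the start. Each of the 19 groups had 2 libraries. Every medium without LIF also lacked the MEK and PKC inhibitors, and N2B27, E8 and mTeSR lacked the tankyrase inhibitor too, so that withdrawal of LIF and withdrawal of these inhibitors cannot be told apart. No cells were kept in PXGL without LIF or in N2B27 with LIF.

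LIF is a cytokine of the interleukin-6 family. It binds LIFR, which pairs with IL6ST (gp130), the signalling chain that this family shares, and the JAK kinases bound to both chains then phosphorylate STAT3, which enters the nucleus and activates its target genes. Among these are SOCS3, whose protein binds gp130 and the kinases and shuts the signal off, and the kinase gene PIM1. Mouse embryonic stem cells are classically maintained in the naive state by LIF, and LIF was carried over into media for human naive cells. Only transcripts were measured here, not the phosphorylation of STAT3 through which the pathway acts.

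STAT proteins activated by cytokines bind a short palindrome, TTCNNNGAA. The 250 bases before the gene start of SOCS2 and PIM1 are shown because these target genes moved in opposite directions after LIF was removed, each called in 10 conditions. The sequences read 5′ to 3′ on the strand of the gene (GRCh38, gene starts of GENCODE release 44), and neither of the 2 shown holds the palindrome. Among the windows of all 8 genes 1 held it, and that window is not shown here.
SOCS2, chr12:93569564-93569813, plus strand: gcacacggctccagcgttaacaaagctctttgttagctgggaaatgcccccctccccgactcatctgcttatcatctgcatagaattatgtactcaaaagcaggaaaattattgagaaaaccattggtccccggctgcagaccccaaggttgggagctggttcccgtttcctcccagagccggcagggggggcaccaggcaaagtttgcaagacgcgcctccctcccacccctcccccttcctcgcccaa
PIM1, chr6:37169902-37170151, plus strand: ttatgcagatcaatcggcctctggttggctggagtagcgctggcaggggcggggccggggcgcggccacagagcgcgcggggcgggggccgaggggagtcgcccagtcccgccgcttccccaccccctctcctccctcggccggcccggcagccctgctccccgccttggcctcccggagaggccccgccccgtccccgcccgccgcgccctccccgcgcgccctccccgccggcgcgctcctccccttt

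The palindrome was found in 1202 of 20033 such windows of protein-coding genes (6.0%). It reads the same on both strands, so that 1 search covered both. Among the start sites of LIFR in RefSeq (GRCh38.p14), 2 windows held it, at position -165 in chr5:38595406-38595655 and at position -182 in chr5:38557468-38557717. In that set the palindrome was found in 6.57% of 35116 windows. A match or its absence is a description of these letters only.

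The 8 genes lie on 6 chromosomes (GRCh38, GENCODE release 44). LIFR (chr5:38474668-38608354) and IL6ST (chr5:55935095-55995022) are on the minus strand of chromosome 5, and JAK1 (chr1:64833223-65067754) and STAT3 (chr17:42313324-42388540) on the minus strand of theirs. JAK2 (chr9:4984390-5129948), SOCS2 (chr12:93569814-93583487) and PIM1 (chr6:37170152-37175428) are on the plus strand, and SOCS3 (chr17:78356778-78360077) is on the minus strand of chromosome 17. Reads of this protocol stem from the 3′ end of a transcript, and the 3′ ends of JAK1 and JAK2 are covered on the other strand by RAVER2, with 3 to 56 counts a library, and INSL6, with 0 to 3. The antisense RNAs LIFR-AS1 and SOCS2-AS1 had at most 3 and 8 counts.

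Total counts per library ranged from 3038046 to 5612354. CPM here means counts divided by the TMM-scaled size of the library. Such levels compare libraries for a gene, not genes with each other. A member was called when the edgeR quasi-likelihood test gave a Benjamini-Hochberg adjusted p under 0.05 and the change exceeded a log2 value of 1 in size. All 8 members were among the 16674 genes tested, although SOCS3, at 2 to 10 counts in naive libraries, passed the filter through the differentiated groups. Summed markers of the naive state were at 1235 to 1623 CPM in naive libraries and at 373 to 1020 CPM in differentiated ones, and those of the primed or formative state at 18.97 to 24.3 and 233 to 758 CPM. The pluripotency genes POU5F1, SOX2 and NANOG summed to 1368 to 1816 CPM in naive and 1281 to 2627 in differentiated libraries. Sums of 5 trophectoderm markers were 15.4 to 23.4 and 17.7 to 71.3 CPM, of 4 amnion markers 5.52 to 11.3 and 2.72 to 18.9, and of 6 fibroblast markers 1.96 to 4.43 and 19.7 to 172, where LUM and DCN did not pass the filter. The fibroblast sum was mostly collagen transcripts, COL1A2 (140 CPM on average in N2B27 at day 8) and COL1A1 (22.5), while DCN was at or under 3 counts in every library, and COL3A1 and LUM were so in all groups but N2B27 at day 8. The part of these cell types in the changes of the 8 genes was not tested.

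The naive libraries of Ex2 carry d4 in their library names although their titles give d0, and their naive marker sums of 1360 and 1235 CPM lay with the other naive libraries and above every differentiated one. The labels number replicates but do not say whether they are separate cultures, and the study's legends call them technical in one place and biological in another, so the p-values measure the spread between libraries, which may be technical. In bulk RNA, fewer cells of a type and less RNA per cell cannot be told apart.

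Against the 6 naive libraries, SOCS3 was higher in all 15 media and days without overlap, PIM1 rose in 10, STAT3 in 6 and LIFR in 4, while SOCS2 fell in 10. IL6ST, JAK1 and JAK2 were called in none of the 15, with log2 changes of -0.64 to 0.46, -0.43 to 0.04 and -0.97 to 0.67. SOCS3 passed the filter through the groups where it was high, so that its calls are left out of the counts that follow. Of 105 tests of the other 7 members 30 were called, 20 higher and 10 lower. In N2B27, 2, 3, 2, 3 and 2 of the 7 were called on days 2, 3, 4, 6 and 8, beside 16.2%, 15.6%, 18.4%, 23.1% and 23.9% of all genes tested. At day 4 these were 1 higher and 1 lower, beside 12.5% and 5.96% of all genes, and at day 8 2 higher and 0 lower, beside 16.9% and 7.03%. In E8 the counts were 1, 1, 3, 2 and 2 of 7 at days 2, 3, 4, 6 and 8, beside 24.6%, 17.8%, 20.8%, 23.3% and 27.5%. In mTeSR they were 3, 2 and 2 at days 4, 6 and 8, beside 19.8%, 22.5% and 25.1%. With XAV and FAX at day 4, 1 of 7 was called in each, beside 17.0% and 17.1%. With so few members these counts say little, and the members' profiles are described next.

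**Figure D1:**
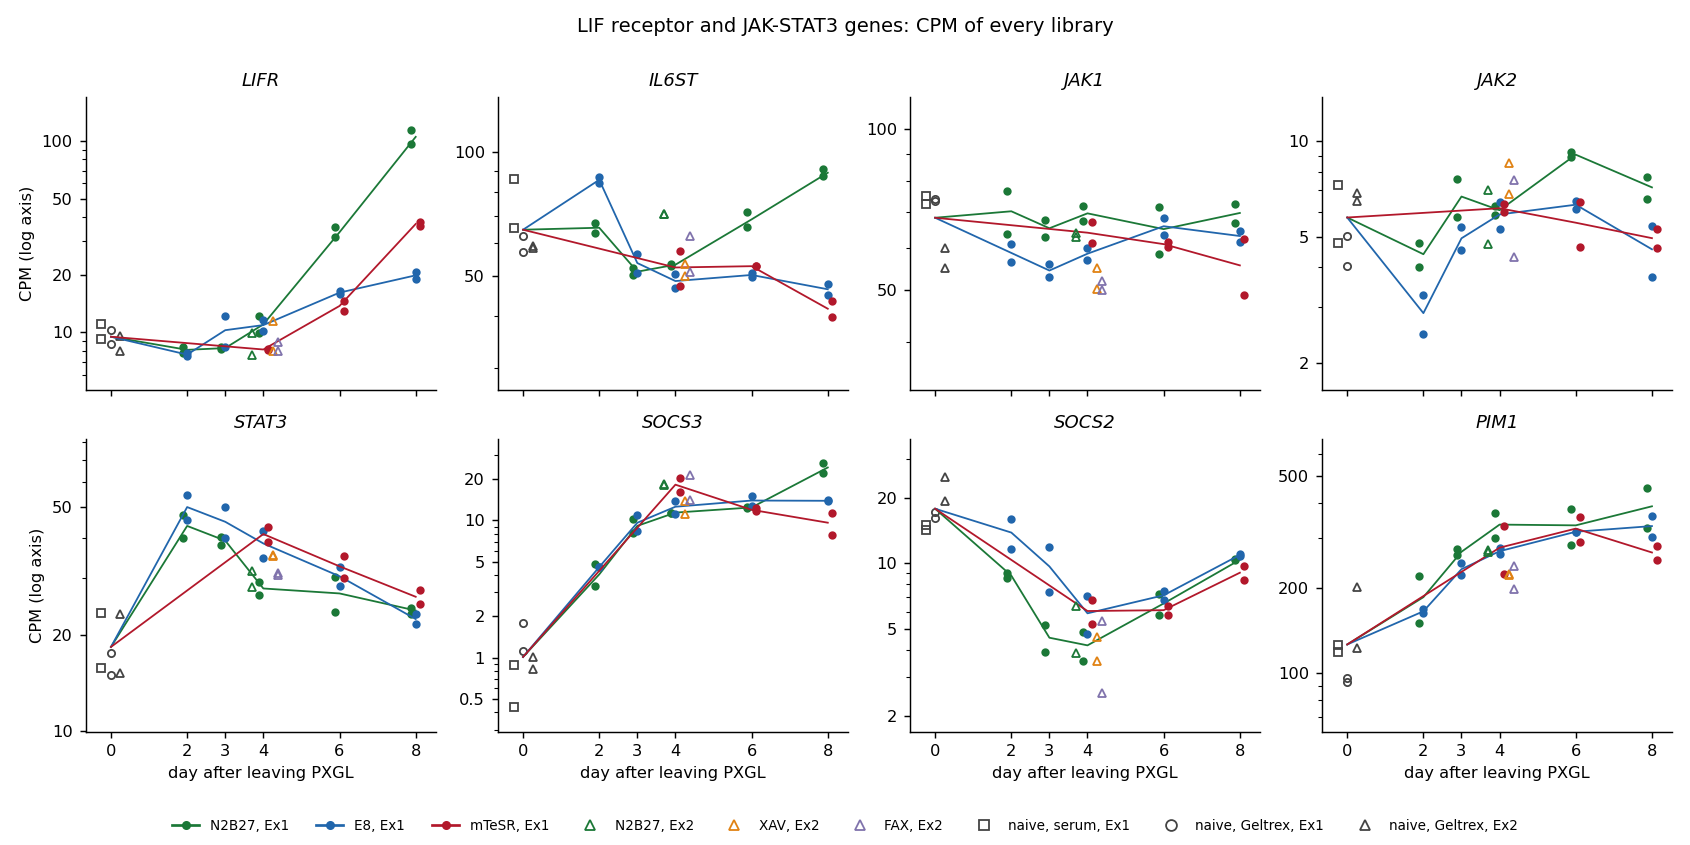
CPM (log axis) of the 8 genes in every library against the day of sampling, with naive libraries at day 0, points for single libraries and lines from the mean of the 6 naive libraries through the means of each medium in Ex1. SOCS3 sat above every naive library in all media and days, SOCS2 lay below them at days 3 and later, and LIFR climbed to 114 and 96.4 CPM in N2B27 at day 8.

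**Figure D2:**
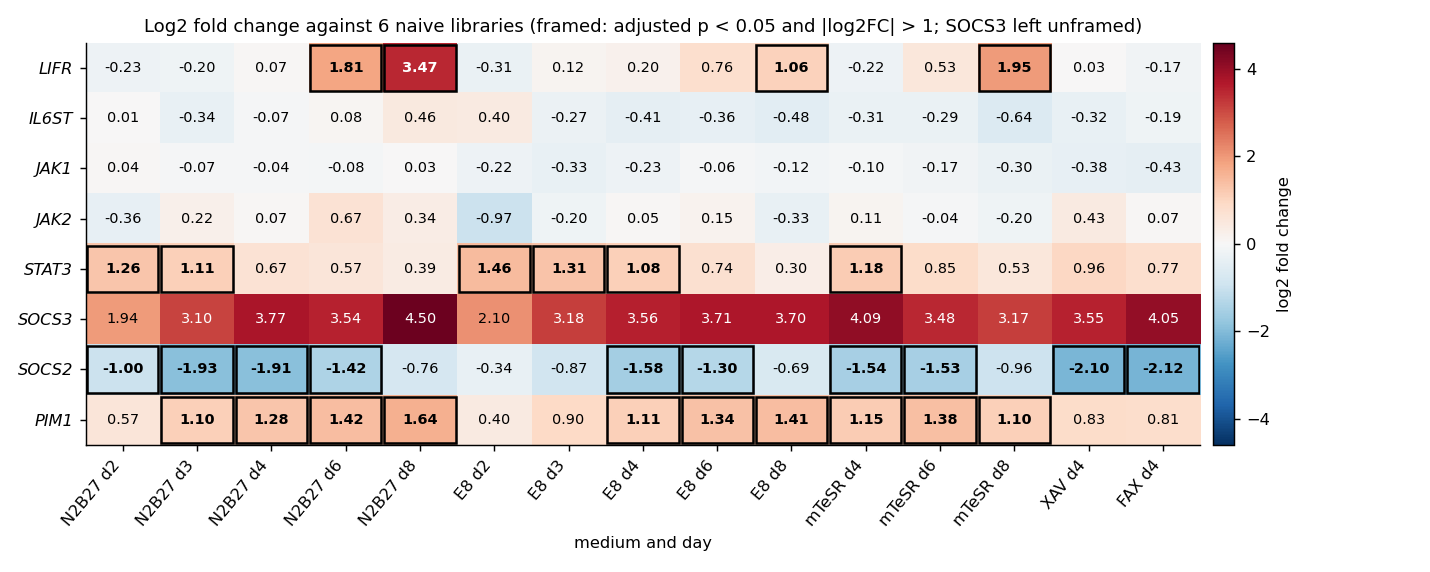
Log2 fold change of each gene (rows) against the 6 naive libraries in each medium and day (columns), with frames around called changes of the 7 genes other than SOCS3, whose values are a description. SOCS2 and PIM1 are each framed in 10 columns, and IL6ST, JAK1 and JAK2 in none.

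LIFR, the chain that binds LIF, stayed near its naive level until day 4 and then rose, most in N2B27. The 6 naive libraries had 8.00 to 11.1 CPM (median 9.40). N2B27 libraries had 8.37 and 7.80 CPM at day 2, 8.34 and 8.18 at day 3, and 9.85 and 12.1 (Ex1) or 9.87 and 7.59 (Ex2) at day 4, all within or close to the naive range. They reached 31.3 and 35.3 CPM at day 6 and 114 and 96.4 at day 8, above every naive library. The rise against naive cells was 1.81 ± 0.15 at day 6 (log2 ± SE, adjusted p = 5.41e-12, edgeR quasi-likelihood test) and 3.47 ± 0.14 at day 8 (adjusted p = 1.1e-20), an 11.1-fold change. Between sampled days of N2B27, LIFR rose by 1.60 from day 4 to day 6 and by 1.65 from day 6 to day 8.

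In E8 and mTeSR the rise of LIFR was smaller. E8 libraries had 15.9 and 16.3 CPM at day 6 and 19.02 and 20.6 at day 8. mTeSR libraries had 14.6 and 12.9 CPM at day 6 and 36.0 and 37.6 at day 8. All 8 of these lay above the naive range, and the change was called at day 8 in mTeSR (1.95 ± 0.15, adjusted p = 1.06e-12) and in E8 (1.06 ± 0.16, adjusted p = 1.45e-06), but not at day 6 (0.53 in mTeSR and 0.76 in E8). With the experiment as a covariate the E8 value at day 8 was 0.99, under the fold threshold.

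IL6ST, the shared signalling chain, moved in opposite directions in the media at day 8 without a call against naive cells. Naive libraries had 57.2 to 85.8 CPM. N2B27 libraries had 87.3 and 90.7 CPM at day 8, above all 6 naive libraries, whereas E8 had 47.9 and 45.04 and mTeSR 43.5 and 39.9, below all of them. The log2 changes were 0.46 ± 0.13 in N2B27, -0.48 ± 0.14 in E8 and -0.64 ± 0.14 in mTeSR (adjusted p = 0.00373, 0.00462 and 0.000475). Across all conditions IL6ST lay above the naive libraries in 1 and below them in 8. How often other genes lacked overlap in this way was not counted. Such counts, for IL6ST and for the other members, are therefore a description. In E8 it was at 87.1 and 84.0 CPM at day 2 and at 56.6 and 51.0 at day 3.

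The kinase genes were not called in any comparison against naive cells. JAK1, the main kinase of gp130 receptors, was at 49.0 to 76.8 CPM over all 38 libraries and at 55.2 to 75.1 CPM in naive ones. Its largest difference from naive cells was -0.43 ± 0.12 in FAX (adjusted p = 0.00742), and against the naive cells of the same experiment, Ex2, that difference was -0.17 ± 0.13 (adjusted p = 0.308). The naive libraries of Ex2 (59.9 and 55.2 CPM) lay below those of Ex1 (72.6 to 75.1), a difference on Geltrex of -0.36 ± 0.12 (adjusted p = 0.0455). JAK2 had 7 to 46 counts a library (2.47 to 9.23 CPM), so that only large changes could be seen. It was lowest in E8 at day 2 (2.47 and 3.27 CPM, log2 -0.97 ± 0.32, adjusted p = 0.0126) and highest in N2B27 at day 6 (8.93 and 9.23 CPM, 0.67 ± 0.23, adjusted p = 0.0161), and neither was called. Without replicate 1 of naive cells on Geltrex in Ex1 the day 2 value was -1.03 and passed the threshold, and against the Geltrex naive cells of Ex1 alone it was -0.66 ± 0.37 (adjusted p = 0.157, edgeR quasi-likelihood test).

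STAT3 transcripts rose early and came back towards the naive level. Naive libraries had 14.9 to 23.4 CPM (median 16.6). N2B27 libraries had 40.1 and 47.3 CPM at day 2, 40.5 and 38.1 at day 3, 26.6 and 29.1 (Ex1) or 31.7 and 28.2 (Ex2) at day 4, 23.5 and 30.3 at day 6, and 23.3 and 24.3 at day 8. Every library up to day 6 lay above the naive ones, and at day 8 the groups overlapped. The change was 1.26 ± 0.15 at day 2 (adjusted p = 4.02e-08, edgeR quasi-likelihood test) and 1.11 ± 0.15 at day 3, and was 0.67, 0.57 and 0.39 at days 4, 6 and 8, not called.

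In E8, STAT3 was likewise highest at days 2 and 3, with 45.5 and 54.6 CPM at day 2, 49.9 and 40.1 at day 3, 42.2 and 34.8 at day 4, 32.5 and 28.3 at day 6, and 23.1 and 21.6 at day 8. Here the rise was called at days 2, 3 and 4 (1.46, 1.31 and 1.08), and without replicate 1 of E8 at day 4 the last value was 0.95. mTeSR libraries had 43.4 and 39.0 CPM at day 4 (1.18 ± 0.15, adjusted p = 9.83e-08) and 24.9 and 27.6 at day 8. At day 6 the mTeSR value was 0.85, not called, and 1.02 and called against the Geltrex naive cells of Ex1 alone. XAV libraries had 35.5 and 35.1 CPM and FAX libraries 30.7 and 31.1, with log2 changes of 0.96 and 0.77 that were not called. Leaving out replicate 1 of naive cells on serum coating or replicate 1 of the Ex2 naive cells, the libraries highest in STAT3 among naive ones, brought XAV to 1.07 or 1.03.

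SOCS3, the feedback inhibitor, was low in naive cells and higher in every medium on every day. The 6 naive libraries, grown with LIF, had 0.44 to 1.80 CPM, and held 27 counts in sum. N2B27 libraries had 4.79 and 3.31 CPM at day 2, 8.09 and 10.2 at day 3, 11.4 and 11.4 (Ex1) or 18.4 and 18.0 (Ex2) at day 4, 12.3 and 12.6 at day 6, and 26.3 and 22.3 at day 8. No differentiated library, at 3.31 CPM or more, overlapped the naive ones. The fitted log2 differences of N2B27 from naive cells were 1.94 ± 0.36 at day 2, 3.77 ± 0.25 at day 4 and 4.50 ± 0.26 at day 8. SOCS3 entered the fit only because it was high in differentiated groups, so that these values are a description with no test, and with so few naive counts their size is imprecise.

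E8 held SOCS3 at 4.58 and 4.58 CPM at day 2, 8.35 and 10.9 at day 3, 11.2 and 14.0 at day 4, 12.8 and 15.2 at day 6, and 14.0 and 13.8 at day 8. mTeSR held it at 20.4 and 16.1 CPM at day 4, 11.7 and 12.2 at day 6, and 7.84 and 11.4 at day 8. It was highest at day 4 in mTeSR and at day 8 in N2B27. XAV libraries had 11.2 and 13.9 CPM and FAX libraries 21.3 and 14.2. In Ex2 both naive libraries held 3 counts of SOCS3, against 147, 126 and 144 in the pairs of N2B27, XAV and FAX libraries. The ratios to naive cells, scaled by library size, were 19.9 (95% interval 8.94 to 55.2), 13.8 (6.15 to 38.2) and 19.3 (8.64 to 53.4). These exact binomial intervals cover counting error only.

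SOCS2, a related inhibitor best known for restraining growth hormone signalling, moved the other way. Naive libraries had 14.1 to 24.9 CPM. N2B27 libraries had 8.57 and 8.98 CPM at day 2, 3.92 and 5.19 at day 3, 4.84 and 3.57 (Ex1) or 3.90 and 6.40 (Ex2) at day 4, 7.26 and 5.82 at day 6, and 10.3 and 10.4 at day 8. All lay below every naive library, lowest at days 3 and 4. The fall was -1.93 ± 0.27 at day 3 (adjusted p = 8.78e-07, edgeR quasi-likelihood test) and -1.91 ± 0.21 at day 4 (adjusted p = 1.73e-09), and the difference was -0.76 at day 8, not called. The call at day 2 (-1.0) stood at the threshold and was lost under most other settings. The value was -0.99 with other scaling (RLE), another filter, no filter, the compared libraries alone or DESeq2, -0.85 with the experiment as a covariate and -0.93 against the Geltrex naive cells of the same experiment. The call was also lost without replicate 2 of naive cells on Geltrex in Ex1 (-0.99), replicate 1 of N2B27 at day 2 (-0.95), or replicate 1 or 2 of the Ex2 naive cells (-0.88 and -0.96).

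In E8, SOCS2 was called lower at days 4 and 6. It had 11.6 and 16.02 CPM at day 2, 11.9 and 7.41 at day 3, 7.07 and 4.72 at day 4 (-1.58 ± 0.26, adjusted p = 7.1e-06) and 7.46 and 6.80 at day 6, and had 10.8 and 11.02 CPM at day 8. E8 at day 2 was the single condition whose libraries overlapped the naive ones. mTeSR had 6.80 and 5.28 CPM at day 4, 6.39 and 5.80 at day 6 and 9.74 and 8.36 at day 8, called at days 4 and 6 (-1.54 and -1.53). XAV libraries had 4.61 and 3.57 CPM and FAX libraries 2.54 and 5.42, at -2.10 and -2.12 against naive cells. These levels were close to those of N2B27 at day 4 (4.84 and 3.57 in Ex1, 3.90 and 6.40 in Ex2), with no call between the media of Ex2. Calls were gained without replicate 1 of E8 at day 3 (-1.25 in place of -0.87) and without replicate 1 of mTeSR at day 8 (-1.06 in place of -0.96).

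PIM1, a serine/threonine kinase gene, rose in all 3 main media. Naive libraries had 118 and 126 CPM on serum coating, 92.9 and 95.9 on Geltrex in Ex1, and 202 and 122 on Geltrex in Ex2. N2B27 libraries had 220.5 and 151 CPM at day 2, 263 and 275 at day 3, 302 and 370.2 (Ex1) or 272 and 268 (Ex2) at day 4, 383 and 285 at day 6, and 328 and 453 at day 8. From day 3 on they lay above all naive libraries. The rise was called from day 3 (1.10 ± 0.18, adjusted p = 1.49e-05) to day 8 (1.64 ± 0.18, adjusted p = 2.48e-09). PIM1 rose likewise in E8 from day 4 (1.11 to 1.41) and in mTeSR at all 3 days (1.10 to 1.38), and in XAV and FAX the values were 0.83 and 0.81, not called. Against the naive cells of their own experiment, Ex2, the XAV and FAX values were 0.47 and 0.44 (adjusted p = 0.0527 and 0.0666, edgeR quasi-likelihood test).

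Single libraries decided some of these calls. Without replicate 1 of mTeSR at day 4, the higher of that pair (332 and 225 CPM), PIM1 was at 0.85 there. Without replicate 1 of the Ex2 naive cells, which had 202 CPM, PIM1 was called in E8 at day 3 (1.07 in place of 0.90) and in XAV (1.01). Against the Geltrex naive cells of Ex1 alone, E8 at day 3 was at 1.31 and called. Against the Ex2 naive cells alone, PIM1 in N2B27 at day 4 was at 0.75 and not called.

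Between media at the same day, the members differed mostly at days 6 and 8, and mostly in LIFR. Over 11 comparisons 7 of 88 member tests were called, 1 higher and 6 lower, beside 3.25% of all tests. In E8 against N2B27, 1 of 8 was called at day 3 (1.68% of all genes), at day 6 (5.28%) and at day 8 (7.29%). In mTeSR against N2B27, 1 was called at day 6 (2.62%) and 3 at day 8 (3.8%). No member was called between mTeSR and E8.

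LIFR was lower than in N2B27 by -1.05 ± 0.17 in E8 and -1.28 ± 0.18 in mTeSR at day 6 (adjusted p = 6.79e-05 and 1.15e-05), and by -2.40 ± 0.16 and -1.51 ± 0.15 at day 8 (adjusted p = 1.28e-12 and 3.35e-08, edgeR quasi-likelihood test). At day 8 the order was N2B27, mTeSR, E8, with no overlap between them, and mTeSR exceeded E8 by 0.89 ± 0.17 (adjusted p = 0.000466), under the fold threshold. IL6ST was lower in mTeSR than in N2B27 at day 8 by -1.09 ± 0.13 (adjusted p = 5.44e-07), and its difference in E8 was -0.94 ± 0.12. SOCS3 was lower in mTeSR at day 8 by -1.33 ± 0.22 (adjusted p = 0.000128), and its difference in E8 was -0.80 ± 0.21. SOCS2 was higher in E8 at day 3 by 1.05 ± 0.30 (adjusted p = 0.0303).

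The SOCS2 difference was lost without replicate 1 of N2B27 (0.89) or replicate 1 of E8 (0.68) at day 3, with DESeq2 (adjusted p = 0.0544), with no filter (adjusted p = 0.0616) and with the compared libraries alone (adjusted p = 0.485). The LIFR difference of E8 at day 6 was -0.97 without replicate 2 of N2B27, and that of IL6ST in E8 at day 8 passed the threshold without replicate 1 of E8 (-1.0).

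**Figure D3:**
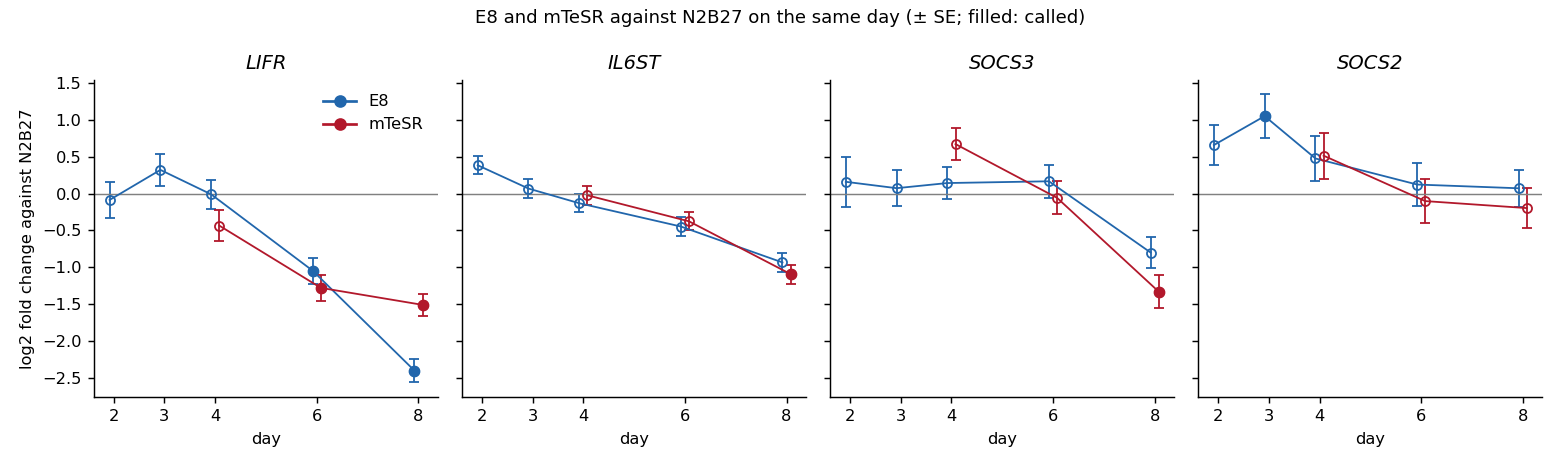
Log2 difference (± SE) of E8 and mTeSR from N2B27 on the same day for LIFR, IL6ST, SOCS3 and SOCS2, with filled points for called differences. LIFR in E8 was at -1.05 at day 6 and -2.40 at day 8. JAK1, JAK2, STAT3 and PIM1 had no call on any day and are not drawn.

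Whether the change from day 4 to day 8 itself differed between media was tested as an interaction, a comparison added after the data were seen. Of 24 member tests 5 were called, beside 1.36% of all tests. LIFR changed less in E8 than in N2B27 by -2.39 ± 0.26 (adjusted p = 5.08e-07), the 1 call of 8 beside 1.43% of all genes. In mTeSR against N2B27, 3 of 8 were called beside 1.69%: LIFR (-1.08 ± 0.27, adjusted p = 0.0175), IL6ST (-1.07 ± 0.18, adjusted p = 0.00036) and SOCS3 (-2.01 ± 0.31, adjusted p = 0.000112). In mTeSR against E8, 1 of 8 was called beside 0.96%: LIFR rose more in mTeSR by 1.32 ± 0.27 (adjusted p = 0.00643). The 3 comparisons share libraries. Leaving out any of 5 libraries ended the LIFR call of mTeSR against N2B27, at -0.93 without replicate 1 of N2B27 at day 4, -0.96 without replicate 1 of N2B27 at day 8, -1.08 or -1.09 without replicate 1 or 2 of mTeSR at day 4, and -1.06 without replicate 1 of mTeSR at day 8 (adjusted p = 0.0523 to 0.12). That call was also lost with DESeq2 (adjusted p = 0.0631) and with no filter (adjusted p = 0.0787). The IL6ST value was -0.94 without replicate 1 of mTeSR at day 4, and the LIFR difference between mTeSR and E8 lost its call without replicate 2 of E8 at day 4 (1.23, adjusted p = 0.0643).

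Markers of endoderm rose together with LIFR at days 6 and 8 in N2B27, but did not follow it in every medium and day. The summed level of SOX17, GATA4, GATA6, FOXA2 and PDGFRA was 0.681 to 4.19 CPM in naive libraries and 3.52 to 8.81 in all libraries of days 2 to 4. In N2B27 it was 41.5 and 46.6 CPM at day 6 and 170.0 and 151 at day 8. At day 8 it was 22.6 and 18.1 CPM in E8 and 84.9 and 82.0 in mTeSR, the same order as that of LIFR. At day 6 it was 11.1 and 9.30 CPM in E8 and 15.2 and 19.8 in mTeSR, where the order of LIFR was the reverse (15.9 and 16.3 CPM in E8 against 14.6 and 12.9 in mTeSR). SOX17 and FOXA2, which define endoderm, were at or under 3 counts in each naive library, and none of the 5 was at that floor in any medium at day 8. The part of such cells in the level of LIFR was not tested.

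**Figure D4:**
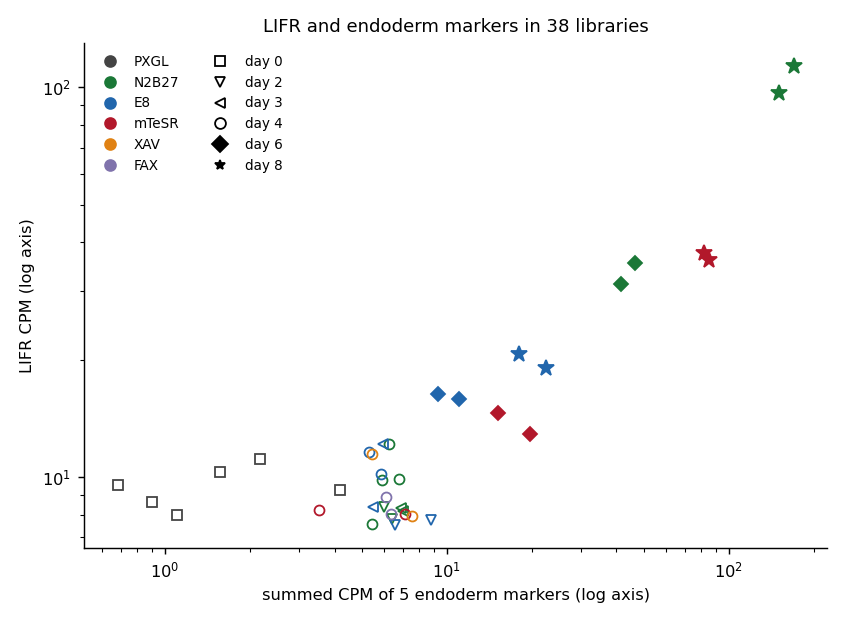
LIFR (CPM, log axis) against the summed CPM of 5 endoderm markers (log axis) in the 38 libraries, coloured by medium. The 2 N2B27 libraries of day 8 hold the highest values on both axes, followed by the mTeSR libraries of day 8.

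No member was called between N2B27 with and without supplements at day 4. Among XAV, FAX and N2B27 of Ex2, 0 of 24 member tests were called with edgeR and 0 with DESeq2, beside 0.306% of all tests. An unadjusted p under 0.05 was found for 6 of the 24, beside 7.91% of all tests. The log2 differences were -0.54 to 0.49, with SE of 0.12 to 0.35. The lowest adjusted p was 0.0683, for IL6ST in XAV (49.95 and 53.6 CPM, against 70.6 and 70.9 in N2B27, -0.45 ± 0.13). With SE of this size, smaller differences in SOCS3, SOCS2 and JAK2, which had few counts, were not detectable at this depth.

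Between sampled days of a medium, 5 of 80 member tests were called, all higher, beside 2.52% of all tests. SOCS3 rose from day 2 to day 3 in N2B27 by 1.16 ± 0.28 (adjusted p = 0.00643, 1 of 8 beside 3.18% of genes) and in E8 by 1.08 ± 0.30 (adjusted p = 0.00986, 1 of 8 beside 7.56%). LIFR rose in N2B27 from day 4 to day 6 (1 of 8 beside 3.89%) and from day 6 to day 8 (1 of 8 beside 1.43%), as given above, and in mTeSR from day 6 to day 8 by 1.42 ± 0.18 (adjusted p = 4.72e-06, 1 of 8 beside 0.978%). The SOCS3 steps rested on single libraries. In N2B27 the call was lost without replicate 2 of day 2 (0.93) or of day 3 (0.98), and in E8 without replicate 1 or 2 of day 2 (1.07 and 1.06) or replicate 2 of day 3 (0.86). With the compared libraries alone neither was called (adjusted p = 0.199 and 0.12). SOCS3 from day 6 to day 8 in N2B27 was at 0.96 and passed the threshold without replicate 2 of day 8 (1.08).

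The naive cultures and the experiments were compared to see how far the starting cells differed. Between naive cells on Geltrex and on serum coating, between the naive cells of both experiments, and between N2B27 at day 4 of both, 0 of 24 member tests were called with edgeR and 0 with DESeq2, beside 1.91% of all tests. An unadjusted p under 0.05 was found for 5 of the 24, beside 19.9% of all tests. PIM1 was higher in the naive cells of Ex2 by 0.77 ± 0.20 (adjusted p = 0.00756), and without replicate 2 of them it passed the threshold (1.09). The response of PIM1 to N2B27 at day 4 was smaller in Ex2 than in Ex1 by -1.09 ± 0.27 (adjusted p = 0.00799), the 1 call of 8 beside 6.48% of all genes. Within each experiment PIM1 rose by 1.83 in Ex1 and had a difference of 0.75 in Ex2. That call was lost without replicate 2 of N2B27 at day 4 in Ex1 (-0.91) or replicate 1 of the Ex2 naive cells (-0.66). Within experiments, SOCS3 was at 2.91 in Ex1 and 4.28 in Ex2, SOCS2 at -1.98 and -2.08, and STAT3 at 0.79 and 0.66. The fitted SOCS3 value of Ex2 depends on the prior count, since its naive libraries held 3 counts each.

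Other genes of the pathway were taken from 5 lists of 51 genes, of which 44 were tested. Against naive cells, 4 were higher and 6 lower in N2B27 at day 4, beside 12.5% and 5.96% of all genes, and 8 and 9 in N2B27 at day 8, beside 16.9% and 7.03%. At day 8, 7 higher and 9 lower were called in E8, beside 27.5% of all genes in either direction, and 5 and 8 in mTeSR, beside 25.1%. The higher counts include IL6 and GBX2 in all of these and JAK3 at day 8, genes too low in naive cells to have passed the filter there. The lower counts include OSMR in N2B27 on both days and in mTeSR, a gene that may have passed the filter through naive cells. Of 7 cytokines of the family, 3 were tested. LIF itself was at 0.908 ± 0.508 CPM in naive cells (SD, n = 6) and at 1.01 ± 1.12 in N2B27 at day 8 (n = 2), with no call. IL6 had 0 to 2 counts in each naive library and 5 in sum. Its ratio to naive cells in N2B27 was 5.29 at day 4 (95% interval for counting error 1.93 to 18.03) and 13.7 at day 8 (5.21 to 45.7), and at day 8 it was 35.3 in E8 (14.4 to 112) and 16.9 in mTeSR (6.34 to 56.9). The median log2 change of the cytokines was 0.10 at day 4 and 0.19 at day 8 of N2B27, where that of all genes was -0.01 and -0.03.

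Of 5 co-receptor genes 4 were tested, and in N2B27 2 were called lower at day 4 and 2 at day 8. The shares of all genes called lower were 5.96% and 7.03%, and OSMR is in both counts. IL6R, which binds interleukin-6, fell from 137 ± 30.8 to 35.0 ± 1.41 CPM at day 8 (-1.97 ± 0.18, adjusted p = 3.3e-11). OSMR, which can take the place of LIFR beside gp130, was at 2.71 ± 1.09 CPM in naive cells. It was at 1.29 ± 0.578 CPM at day 4 and 0.799 ± 0.112 at day 8. At such levels it may have passed the filter through naive cells, where it was high, so that its difference is a description. IL11RA fell at day 4 (-1.11 ± 0.39). The list medians were -0.89 and -0.83.

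Of 8 other JAK and STAT genes 7 were tested, and 0 were called at day 4 of N2B27, beside 18.4% of all genes in either direction. At day 8, STAT5A and STAT5B, which carry growth hormone and prolactin signals, rose by 1.63 ± 0.34 and 1.35 ± 0.19. JAK3, a kinase of lymphoid cytokine receptors, was at 0.474 CPM in naive cells, too low to have passed the filter there. Its fitted difference of 1.96 ± 0.62 is a description. Among 14 other inhibitors 0 were called at day 4, beside 18.4% of all genes in either direction. At day 8, 2 fell, beside 7.03% of all genes, SOCS5 (-1.0 ± 0.13) and CISH (-1.15 ± 0.31). Their medians were -0.17 and -0.21.

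Of 17 other STAT3 target genes 16 were tested, with 2 higher and 4 lower at day 4, beside 12.5% and 5.96% of all genes, and 2 higher and 5 lower at day 8, beside 16.9% and 7.03%. The 2 higher calls were those of MYC and GBX2. The list medians were -0.29 and -0.15. MYC, the growth-promoting transcription factor, rose from 1.78 ± 1.23 to 31.3 ± 1.85 CPM at day 4 (4.03 ± 0.23, adjusted p = 4.32e-16), and GBX2 was at 0.632 ± 0.33 CPM in naive cells and 19.04 ± 2.19 at day 4. GBX2, with 0 to 5 counts in naive libraries, is one of those that passed the filter through the groups where they were high, so that its difference from naive cells is a description. BCL3 fell from 28.5 ± 7.84 to 6.57 ± 1.57 CPM (-2.08 ± 0.22), and JUNB, an AP-1 subunit, from 13.1 ± 4.15 to 5.20 ± 1.05 (-1.37 ± 0.22). KLF4 and TFCP2L1, transcription factors of the naive state that LIF sustains in mouse cells, fell in N2B27. Their log2 changes were -1.44 ± 0.23 and -1.19 ± 0.08 at day 4 and -3.00 ± 0.35 and -1.78 ± 0.11 at day 8. In E8 at day 8, KLF4 was at 61.1 ± 4.82 CPM, against 111 ± 45.6 in naive cells (-0.87 ± 0.29, not called). CEBPD fell at day 8 of N2B27 (-1.02 ± 0.31).

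**Figure D5:**
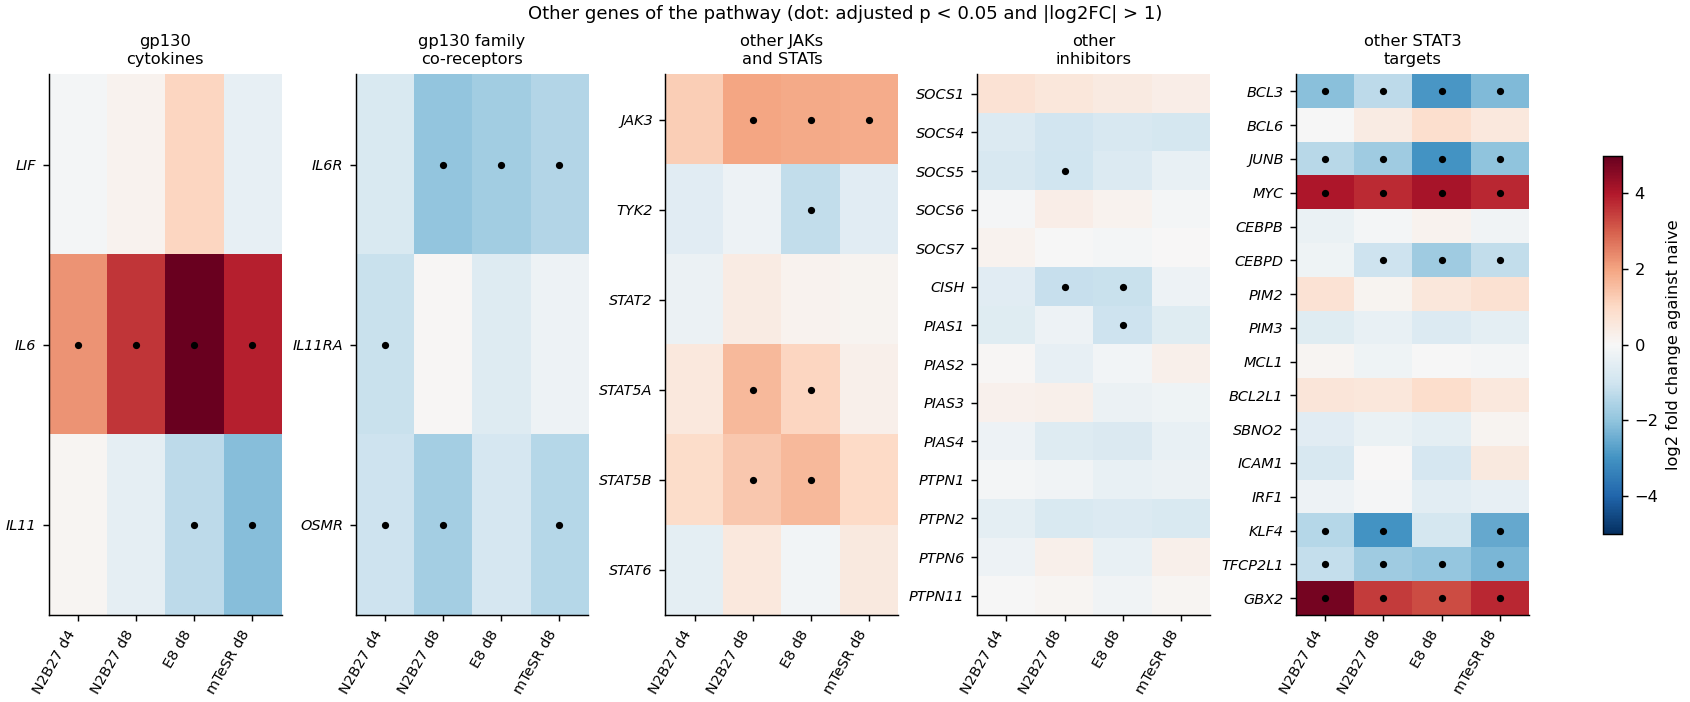
Log2 fold change of tested genes of 5 pathway lists against naive cells in N2B27 at days 4 and 8 and in E8 and mTeSR at day 8, with dots on called changes. MYC, GBX2 and IL6 are among the genes that were higher, GBX2 and IL6 as a description only. KLF4, IL6R and BCL3 are among those that were lower. KLF4 in E8 at day 8 (-0.87) and IL6R in N2B27 at day 4 (-0.75) were not called.

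The profiles most like each member's were sought among 7124 genes with a mean of at least 20 CPM, by Pearson's r of mean log2 CPM over the 19 groups. The groups share media, days and experiments and are not independent, so that r is a description with no test. SOCS3 was matched best by ANKRD33B (r = 0.96), H3.Y (0.958) and NRK (0.955), PIM1 by CREB5 (0.963), RRM2B (0.955) and PPFIBP1 (0.948), and STAT3 by MOV10 (0.95), WNT5B (0.943) and FKBP1A (0.93). LIFR was closest to FN1, the gene of the matrix protein fibronectin (0.944), HPGD (0.898) and GNB4 (0.892), and SOCS2 to IGF2BP3 (0.942), LEMD2 (0.915) and PPA2 (0.901). IL6ST (EVI5, VEZT and RCAN3), JAK1 (CPLANE1 and HP1BP3) and JAK2 (ZFP82, NUP43 and TOP2A) had lower best values of 0.816, 0.767 and 0.833.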

How the data were processed

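The 8 members, the gene lists and the comparisons were chosen with earlier results of these data known. The deposited table holds raw counts per gene of QuantSeq 3′ tag libraries, which the authors made with nf-core/rnaseq (Salmon 1.9.0, STAR 2.7.10a, FastQC 0.11.9; genome hg38) and summed with tximport. All 38 columns were mapped to samples by name. Depth was 3038046 to 5612354 counts, so that 3 counts, taken as the floor, correspond to 0.535 to 0.987 CPM.

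The tests used edgeR 4.0.16 under R 4.3.3 (filterByExpr, leaving 16674 genes and 99.65% of counts; TMM; quasi-likelihood F-test; Benjamini-Hochberg over all genes of each comparison). A fit with 16 levels of medium and day gave the comparisons against naive cells, and a fit with 19 groups the others. SE is the log2 change divided by the square root of F. Alternatives were other scalings, filters, DESeq2 1.42.0, covariates, naive libraries of 1 experiment, a replicate block and leaving out libraries.

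Named genes were all 8 members, list genes called against naive cells in N2B27 at day 4 or 8, and, for each member with at least 5 CPM on average, the 3 genes of most similar profile. LIF was named after its values were seen. A few genes and 1 promoter window are left out of the text and not reported. Marker lists covered pluripotency, naive, primed, trophectoderm, amnion, endoderm and fibroblast genes. Promoters were read from GRCh38 and from RefSeq windows, cut to 250 bases before the start. The values of 20 CPM and 5 CPM, the log2 limit of 1 and the adjusted p limit of 0.05 were fixed settings.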

Additional observations from a re-analysis of the deposited data

Results flagged for a closer look

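The 8 genes were examined for an outlying library in the 6 naive and the 4 N2B27 day 4 libraries, 16 sets of values, and 2 held an outlier by Dixon's criterion, which flags about 1 set in 20 by chance. The naive library of replicate 1 on serum coating had 85.8 CPM of IL6ST, and the naive library of replicate 1 on Geltrex in Ex2 had 201.9 CPM of PIM1. No library was left out of the main values for this reason.

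The other results singled out are differences between effects. The response of PIM1 to N2B27 at day 4 differed between experiments by -1.09 (log2, Ex2 minus Ex1). The change from day 4 to day 8 differed between E8 and N2B27 by -2.39 for LIFR. Between mTeSR and N2B27 it differed by -1.08 for LIFR, by -1.07 for IL6ST and by -2.01 for SOCS3. Between mTeSR and E8 it differed by 1.32 for LIFR. Each passed the edgeR quasi-likelihood test of the difference with Benjamini-Hochberg adjustment, and those libraries whose removal ended a call are named with the results. The LIFR difference between mTeSR and N2B27 did not pass with DESeq2 (adjusted p = 0.0631) or with no filter (adjusted p = 0.0787). No cause was tested.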

How the results depend on the processing

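Of 63 called member results, 50 were called under every other setting tried, and 0 reversed. These counts and those below include the 15 of SOCS3 against naive cells. Of 43 results with an adjusted p under 0.05 and no call, 10 were called under at least 1 other setting. Without the fold threshold (adjusted p alone), the calls were 75 in place of 45 against naive cells (58 in place of 34 at days 4 to 8), 12 in place of 7 between media, 10 in place of 5 between days and 2 in place of 0 between naive cultures and experiments. The share of all genes under that looser rule is not given here. An unadjusted p under 0.05 was found for 47.8%, 22.4%, 20.4% and 19.9% of all tests in these sets (edgeR quasi-likelihood test), so that more calls are no trait of the members. With the compared libraries alone, 3 in place of 5 were called between days. Leaving out 1 library at a time gave 44 to 47 calls against naive cells, 6 to 8 between media, 0 with XAV or FAX, 4 to 6 between days, 0 to 1 between naive cultures and experiments, 0 to 1 for the day 4 response between experiments and 3 to 5 for the change from day 4 to day 8 between media. Plain library totals moved the median of all genes by over 0.1 in 3 comparisons (-0.15 in E8 at day 2 against naive cells, -0.15 against N2B27, and 0.17 in E8 from day 2 to day 3), where JAK2 in E8 at day 2 was called (-1.12). No member changed sign with the scaling.

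Replicate numbers did not pair the libraries: in 171 pairs of groups the correlation of the deviations was -0.54 to 0.45, and over 0.1 in 28. With the replicate number as a block the counts were 45, 7, 0, 5, 0, 1 and 5, in the order above.

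JAK2 had 7 to 46 counts a library and SOCS3 2 to 10 in naive cells, which limits the size of change that can be seen in them. The tests cover the spread between libraries of 1 line and of 1 or 2 experiments.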
